A study of Mus musculus with 40 samples.

Results

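The 6 genes described here do not recombine. Igll1, Vpreb1 and Vpreb2 encode the surrogate light chain of the pre-B cell receptor, and Vpreb3 encodes a relative of it. Cd79a and Cd79b encode CD79A and CD79B, the signalling chains of the B cell antigen receptor and its precursor. The 6 genes were taken by symbol from the rows of the count table, and all 6 were found among 21958 gene rows. The study sorted B-lineage cells from the bone marrow of 10 chimeric mice, each a lethally irradiated CD45.1 host that had received CD45.2 marrow 8 weeks earlier. In 5 of these mice the donor was wild type (WT), and in 5 it was homozygous for P198A, an allele made with CRISPR/Cas9 (mutant, called KO in the sample titles). Each mouse gave 4 libraries of 100 donor cells, which makes 8 groups of 5 libraries: FrB (B220+ CD43+ CD24+ BP-1-, pro-B cells), FrC (its gate is not stated in the labels), FrD (B220+ CD43- IgM- IgD-, late pre-B cells) and FrE (B220+ CD43- IgM+ IgD-, immature B cells). RNA was amplified with Smart-seq2 in the presence of ERCC spike-in RNA. The gene that carries P198A is not named in the labels. It is known from the study to be Slc39a7, which encodes the zinc transporter ZIP7, and since the change is a missense one its RNA does not check the genotype. Irradiation, marrow transfer and the CD45.2 gate are common to both genotypes, the FrB gate names neither IgM nor IgD, and ages were not given.

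In a pro-B cell, VPREB and lambda5 (the product of Igll1) together form a surrogate light chain that pairs with the newly made mu heavy chain. This pre-B cell receptor (pre-BCR) signals through CD79A and CD79B, drives large pre-B cells into division, and is lost when the surrogate light chain genes are silenced in small pre-B cells. Conventional light chains then take its place, and the CD79 pair stays with the receptor throughout B cell life. VPREB3 is a related chain of the endoplasmic reticulum that binds free mu chains and is not part of the surface receptor.

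Vpreb1 and Vpreb2 are near-copies, which limits how far their counts can be read apart. Their coding sequences are 426 bases each and differ at 9 positions (97.9% identity), and 58.7% of the 30-base windows of Vpreb1 occur unchanged in Vpreb2. How reads that fit both were counted is not stated in the labels, so the split between these genes is uncertain. The other pairs among the surrogate light chain genes and Vpreb3 had coding identities of 40.9 to 47.4% and shared no 30-base window. The stretch with the densest differences, bases 268 to 387 of the coding sequence (GENCODE M21, GRCm38), is printed to show what distinguishes them, with the 6 differing bases in capitals:
Vpreb1: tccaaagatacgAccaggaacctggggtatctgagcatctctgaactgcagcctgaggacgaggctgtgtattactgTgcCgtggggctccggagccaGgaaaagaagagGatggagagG
Vpreb2: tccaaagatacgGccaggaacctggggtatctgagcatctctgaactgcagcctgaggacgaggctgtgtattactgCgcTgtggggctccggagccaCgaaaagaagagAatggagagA

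Igll1 (ENSMUSG00000075370) lies at chr16:16860671-16863985 on the minus strand of GRCm38, 4417 bp from Vpreb1 (ENSMUSG00000059305, chr16:16868403-16870843, minus strand). Exons of Vpreb1 overlap exons of Top3b on the opposite strand. Vpreb2 (ENSMUSG00000059280, chr16:17980428-17981273, plus strand) lies 1109584 bp further along the same chromosome. Vpreb3 (ENSMUSG00000000903) is at chr10:75943057-75949657 on the plus strand and overlaps a processed pseudogene, Gm16221, without sharing an exon. Cd79a (ENSMUSG00000003379, chr7:24897381-24902197, plus strand) and Cd79b (ENSMUSG00000040592, chr11:106311341-106314762, minus strand) are on separate chromosomes.

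The start regions of the surrogate light chain genes, which moved together across fractions, and of Cd79a, which did not move with them but holds the same E-box, are printed from RefSeq (GRCm38.p6). Each window runs from 250 bases before to 50 after the start annotated by RefSeq, on the strand of the gene. That start matches the GENCODE gene bound given above for Igll1 only. The Vpreb1 window lies wholly inside its gene bounds, and the annotated start of Vpreb2 is its start codon. Capitals mark the E-box CAGGTG, which E2A proteins bind, and the letters CCCNNGGG, a form of the EBF1 site, each searched on both strands (CAGGTG on the other strand reads CACCTG). The windows are chr16:16863936-16864235 for Igll1, chr16:16869206-16869505 for Vpreb1, chr16:17980315-17980614 for Vpreb2 and chr7:24897247-24897546 for Cd79a:
Igll1: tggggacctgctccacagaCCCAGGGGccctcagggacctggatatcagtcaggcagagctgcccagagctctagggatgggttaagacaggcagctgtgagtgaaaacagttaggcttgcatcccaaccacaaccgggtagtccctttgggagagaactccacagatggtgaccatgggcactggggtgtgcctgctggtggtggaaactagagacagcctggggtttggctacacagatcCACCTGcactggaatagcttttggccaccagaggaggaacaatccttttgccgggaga
Vpreb1: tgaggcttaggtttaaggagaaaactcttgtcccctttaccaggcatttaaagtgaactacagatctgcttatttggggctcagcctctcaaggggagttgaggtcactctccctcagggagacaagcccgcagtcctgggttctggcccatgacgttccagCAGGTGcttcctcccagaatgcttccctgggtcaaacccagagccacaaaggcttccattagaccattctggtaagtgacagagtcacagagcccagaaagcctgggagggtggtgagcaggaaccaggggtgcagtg
Vpreb2: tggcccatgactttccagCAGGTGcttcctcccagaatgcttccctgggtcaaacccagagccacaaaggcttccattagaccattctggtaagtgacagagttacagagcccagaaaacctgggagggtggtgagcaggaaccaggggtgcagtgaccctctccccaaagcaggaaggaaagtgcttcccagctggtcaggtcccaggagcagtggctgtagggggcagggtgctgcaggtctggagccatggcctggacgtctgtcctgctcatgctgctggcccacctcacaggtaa
Cd79a: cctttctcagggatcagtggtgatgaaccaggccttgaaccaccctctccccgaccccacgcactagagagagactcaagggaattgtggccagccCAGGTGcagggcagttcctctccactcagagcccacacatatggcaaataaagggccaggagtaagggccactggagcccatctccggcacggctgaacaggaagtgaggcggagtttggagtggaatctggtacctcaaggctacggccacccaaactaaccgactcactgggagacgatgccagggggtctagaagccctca

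CAGGTG was present in 4 of the 5 windows found for these genes (Igll1, Vpreb1, Vpreb2 and Cd79a, not Vpreb3), and in 20.2% of 32851 windows of the same length. The Vpreb3 window is chr10:75948050-75948349, which also lies inside the gene bounds given above. CCCNNGGG was present in 1 of the 5, that of Igll1, and in 13.7% of all windows. The Ikaros letters TGGGAA occurred in Vpreb2 (25.6% of all windows), and the RUNX letters TGTGGT in Igll1 and Vpreb3 (16.8% of all windows). No match overlapped another. The window of Vpreb1 from 106 bases before to 49 after its start aligned with bases 250 to 95 before the annotated start of Vpreb2 (the start counted as 0) over 156 bases, with 3 differences (98.1% identity), so the E-boxes of these genes are the same aligned element.

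Libraries held 42111 (FrE of mutant mouse 9) to 43372070 counts on genes, with a second lowest total of 1723215. Libraries are called low-complexity where more than 15% of the genes with a count had between 1 and 9. There were 10, namely 8 of 20 mutant libraries (FrB of mice 4, 8, 9 and 10, FrC of mice 5, 9 and 10, FrE of mouse 9) and 2 of 20 WT libraries (FrD of mouse 3, FrE of mouse 7). The margin at this cut is narrow, from 14.7% in the highest library below it (WT FrE of mouse 1) to 16.4% in the lowest above it (mutant FrB of mouse 10). Enpep, which encodes BP-1, stood at 0 to 7.59 CPM (a gene's share of all gene counts of its library, on a scale common to all libraries) in WT FrB and at 65.8 to 158 CPM in WT FrC. In mutants Enpep ran from 0 to 4.37 CPM in FrB and from 0.627 to 127 CPM in FrC, so those ranges overlapped. Slc39a7 ran from 2.15 to 343 CPM in WT and from 0 to 268 CPM in mutant libraries.

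Levels are given as CPM unless another scale is named. In libraries of sorted cells, fewer cells that express a gene and less of its RNA per cell cannot be told apart.

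In WT mice the surrogate light chain genes were abundant in FrB and FrC and low in most FrD and FrE libraries. Igll1 stood at 2863, 2450, 2432, 2586 and 3079 CPM in FrB of mice 1, 2, 3, 6 and 7, and at 2334, 3107, 2425, 2821 and 2139 CPM in FrC. In FrD of the same mice it was 264, 153, 6.28, 272 and 21.8 CPM. Every FrD library lay below every FrB and FrC library. In FrE the values were 1.12, 810, 114, 6.05 and 5.06 CPM, with mouse 2 far above the rest. By mean the order was FrB (2682 ± 281 CPM, SD, n = 5), FrC (2565 ± 392), FrE (187 ± 351) and FrD (144 ± 127), and neither FrB and FrC nor FrE and FrD differed by more than their SDs.

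Vpreb1 had the same shape at a lower level. Its CPM in mice 1, 2, 3, 6 and 7 were 1512, 1095, 1111, 1605 and 1776 in FrB and 951, 1315, 989, 1475 and 1044 in FrC. In FrD they were 95.0, 56.7, 33.3, 180 and 36.7, and in FrE 0.73, 257, 51.9, 14.2 and 1.395. The FrE library of mouse 2 was again the highest, and 4 of 5 WT mice were lower in FrC than in FrB. The means were 1420 ± 304 CPM in FrB, 1155 ± 229 in FrC, 80.3 ± 60.8 in FrD and 65.1 ± 110 in FrE (SD, n = 5 each), and only the gap between FrC and FrD was wider than the SDs.

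Vpreb2 was the least abundant of the 3 chains. WT mice 1, 2, 3, 6 and 7 had 178, 203, 147, 217 and 226 CPM in FrB and 166, 213, 127, 200 and 105 CPM in FrC. In FrD they had 4.34, 0.20, 0.47, 23.4 and 0 CPM, where the count of 0 in mouse 7 allows up to 0.126 CPM (3 counts, counting error only). FrE gave 0.086, 37.8, 0.16, 0.36 and 0.35 CPM. Mouse 2 was thus the highest FrE library for all 3 genes. The mean levels were 194 ± 31.8, 162 ± 46.4, 5.67 ± 10.04 and 7.75 ± 16.8 CPM from FrB to FrE (SD, n = 5 each), with only FrC and FrD apart by more than their SDs.

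Vpreb3 ran the other way from FrC to FrD. In WT mice 1, 2, 3, 6 and 7 it stood at 1399, 1322, 1785, 2096 and 2091 CPM in FrB and at 1657, 2128, 1612, 2111 and 2331 CPM in FrC. FrD held 4597, 4309, 3896, 5279 and 6442 CPM, all above every other WT library. FrE held 3074, 2045, 3419, 1889 and 1995 CPM. The order was FrD (4905 ± 996), FrE (2484 ± 709), FrC (1968 ± 317) and FrB (1739 ± 368 CPM, SD, n = 5 each), in which FrE, FrC and FrB did not differ beyond their SDs.

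The CD79 genes had their lowest WT mean in FrC and their highest in FrE. Cd79a stood at 4244, 3615, 3440, 3880 and 4194 CPM in FrB of mice 1, 2, 3, 6 and 7 and at 2610, 2990, 2744, 3012 and 2529 CPM in FrC, so it was lower in FrC in 5 of 5 mice. In FrD it was 6903, 6815, 652, 5657 and 7568 CPM, and in FrE 11203, 7363, 8558, 7252 and 1201 CPM. The low FrD value (mouse 3) and the low FrE value (mouse 7) belong to the low-complexity libraries of those groups, and without them FrD ran from 5657 to 7568 and FrE from 7252 to 11203 CPM.

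Cd79b followed Cd79a closely. It was 2373, 2325, 2045, 2540 and 2527 CPM in WT FrB and 1451, 1565, 1427, 1748 and 1640 CPM in FrC, again lower in FrC in 5 of 5 mice. FrD gave 6479, 5810, 2014, 6359 and 6935 CPM, and FrE 10961, 6854, 9178, 6693 and 4633 CPM. The order of means was FrE (7664 ± 2447), FrD (5520 ± 2000), FrB (2362 ± 201) and FrC (1566 ± 133 CPM, SD, n = 5 each). For Cd79b, FrE and FrD overlapped within their SDs and FrB and FrC did not. For Cd79a, FrE (7115 ± 3669), FrD (5519 ± 2806) and FrB (3875 ± 352) each overlapped the next, and FrC (2777 ± 218) lay below FrB.

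**Figure D1:**
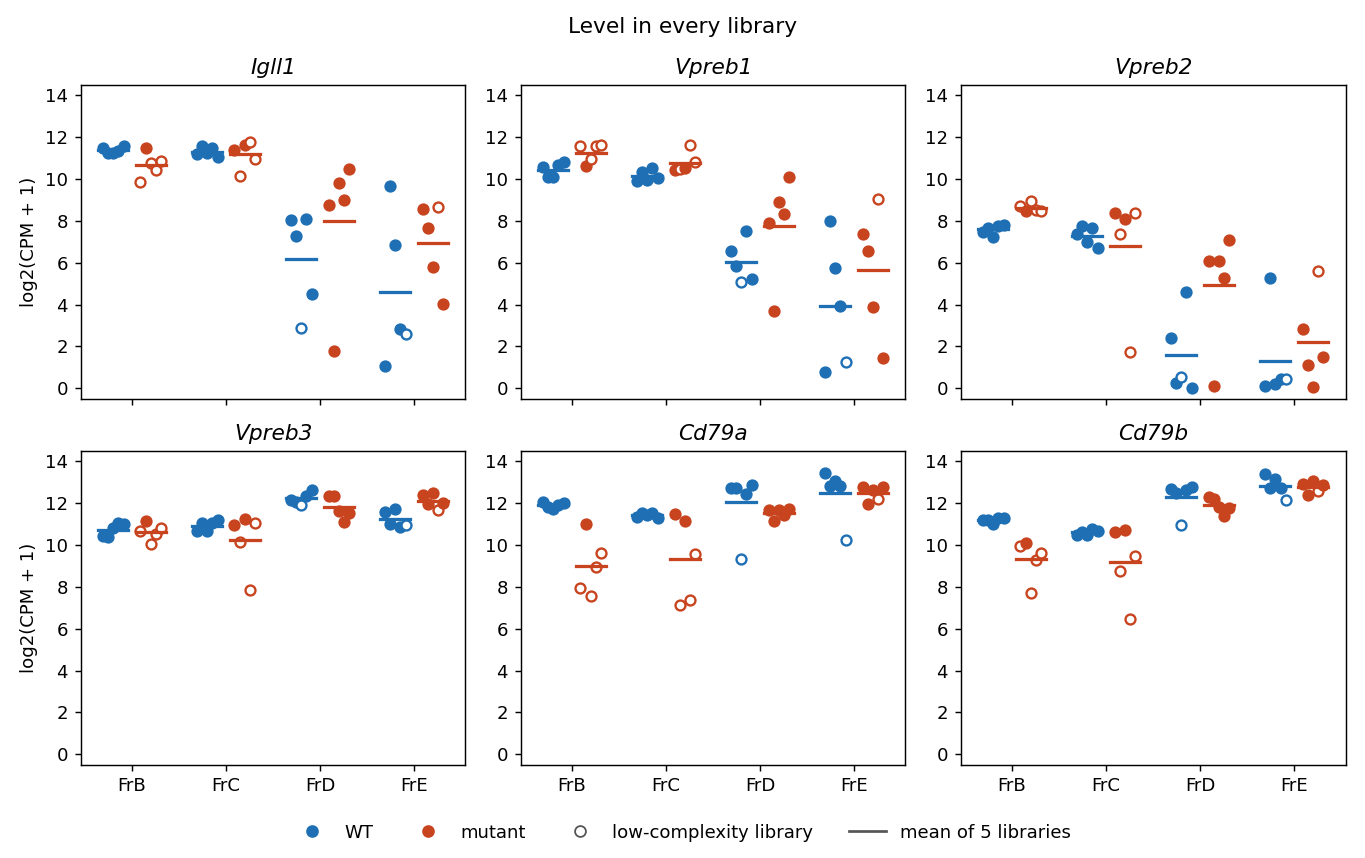
Level of the 6 genes in every library as log2(CPM + 1), by fraction (x axis) and genotype (blue WT, red mutant). Each point is 1 library, open points are low-complexity libraries, and bars are means of 5 libraries. Igll1, Vpreb1 and Vpreb2 drop from FrC to FrD, and the low Cd79a points of FrB are mutant libraries.

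Per kilobase of their longest mRNA, the WT FrB genes ranked Igll1 (3083 ± 323 CPM per kb), Cd79a (2659 ± 241), Vpreb3 (2385 ± 505.3), Vpreb1 (1854 ± 397), Cd79b (1651 ± 140) and Vpreb2 (256 ± 41.9, SD, n = 5 each). Each gap between neighbours down to Cd79b was smaller than the sum of the SDs. In WT FrE the order was Cd79b (5356 ± 1710 CPM per kb), Cd79a (4884 ± 2518), Vpreb3 (3408 ± 972), Igll1 (215 ± 404), Vpreb1 (85.0 ± 143) and Vpreb2 (10.2 ± 22.1). The place of Igll1 in FrB rests on the length used: per kilobase of all annotated exons it stood at 1239, below Cd79a (2659), Vpreb3 (2024) and Cd79b (1651).

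Steps between consecutive fractions ask how the receptor genes change as cells mature. They were tested with edgeR's quasi-likelihood test on all genes, and genes with an adjusted p (Benjamini-Hochberg) below 0.05 are described as called. From FrB to FrC 0 of the 6 genes was called in WT mice, where 0.166% of all genes tested were called. Cd79b had the lowest p (log2 fold change -0.68 ± 0.23 SE, adjusted p = 0.466).

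From FrC to FrD 3 of the 6 were called in WT mice, against 5.23% of all genes (2.95% higher and 2.28% lower). Cd79b rose by 2.01 ± 0.24 on the log2 scale (adjusted p = 2.46e-05) and Vpreb3 by 1.57 ± 0.23 (adjusted p = 0.000286), each in 5 of 5 mice. Vpreb1 fell by 3.66 ± 0.96 (adjusted p = 0.0272), also in 5 of 5 mice. That call was lost without mouse 3 (adjusted p = 0.108), without mouse 6 (0.0585) and with no low-count filter (0.08115).

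Igll1 and Vpreb2 were lower in FrD in 5 of 5 WT mice too, by medians of -4.33 and -6.44 on the log2(CPM + 1) scale, without passing the test. Their fitted changes were -4.02 ± 1.295 (adjusted p = 0.0778) and -4.69 ± 1.48 (adjusted p = 0.0650). DESeq2 called Vpreb2 (adjusted p = 0.00321), as did the fit without mouse 6 (adjusted p = 0.0472). Cd79a was higher in 4 of 5 mice (1.16 ± 0.42, adjusted p = 0.111) and was called without mouse 3 (1.43, adjusted p = 0.0380).

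From FrD to FrE Vpreb3 was the only one of the 6 called in WT mice, where 5.32% of all genes were (2.88% higher and 2.43% lower). It fell by 1.03 ± 0.23 on the log2 scale (adjusted p = 0.00897), in 5 of 5 mice. The call was lost without mouse 6 (adjusted p = 0.0600) and without mouse 7 (0.0572), and under spike-in scaling (-0.68, adjusted p = 0.579). Cd79b (0.46 ± 0.23, adjusted p = 0.253) and Cd79a (0.35 ± 0.42, adjusted p = 0.705) were higher in 4 of 5 mice.

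These steps are relative to the other genes of the library, and scaling to the spike-in RNA gave another picture of the CD79 genes and Vpreb3. With spike-in totals as library sizes the median of all genes from WT FrC to FrD was -2.39 on the log2 scale, against 0.09 with TMM factors (edgeR's scaling on the bulk of genes), and calls over all genes went from 337 higher and 261 lower to 40 higher and 6596 lower. Vpreb3 then stood at -0.92 ± 0.51 and Cd79b at -0.54 ± 0.52, neither of them called, and Cd79a fell by 1.49 ± 0.60 (adjusted p = 0.0357). The surrogate light chain genes fell under this scaling as well, at -6.47 for Igll1 (adjusted p = 0.00454), -6.17 for Vpreb1 (adjusted p = 0.000623) and -7.53 for Vpreb2 (adjusted p = 0.00552).

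As counts per 1000 spike-in counts, Cd79b in WT mice was 2689 ± 1276, 2783 ± 1337, 1910 ± 939 and 3471 ± 1271 from FrB to FrE (SD, n = 5 each), and no neighbouring fractions differed beyond these SDs. Igll1 on the same scale went from 3062 ± 1446 and 4740 ± 2619 in FrB and FrC to 53.3 ± 52.9 and 111 ± 220 in FrD and FrE. The drop of the surrogate light chain genes thus had the same direction on both scales. The rise of Vpreb3 and Cd79b from FrC to FrD was seen relative to the other genes only. The spike-in scale is itself uneven, with totals from 101 (mutant FrE of mouse 9) to 187335 counts (WT FrD of mouse 7). In WT FrB, gene counts per spike-in count were 10.6, 10.8 and 10.6 on the log2 scale in mice 1, 2 and 3. They were 9.02 and 9.09 in mice 6 and 7, and WT FrC was divided in the same way.

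**Figure D2:**
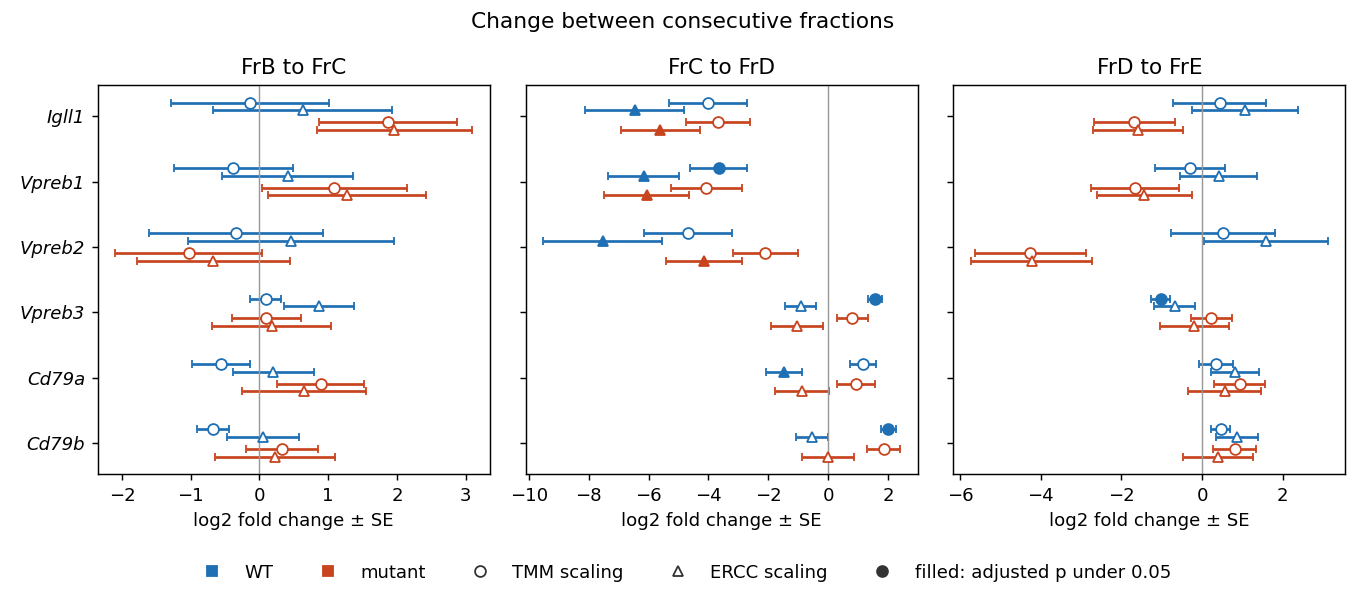
Fitted log2 fold change with its standard error for each gene between consecutive fractions, in WT (blue) and mutant (red) mice. Circles are scaled with TMM factors and triangles to spike-in totals, and filled symbols have an adjusted p under 0.05. From FrC to FrD the TMM values of Vpreb3, Cd79a and Cd79b lie above 0 and their spike-in values do not.

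In mutant mice none of the 6 genes was called in any step, while 0%, 2.97% (0.402% higher and 2.56% lower) and 0% of all genes were called in the 3 steps in their order. From FrC to FrD, Igll1 (-3.68 ± 1.08) and Vpreb1 (-4.07 ± 1.18) were lower in 5 of 5 mice (adjusted p = 0.0574 for both), and Cd79b (1.85 ± 0.54, adjusted p = 0.0564) was higher in 5 of 5. Without the low-complexity libraries Igll1 stood at -2.12 (adjusted p = 0.642) and Vpreb1 at -1.73 (adjusted p = 0.744). Cd79b was called without mouse 9 (1.89, adjusted p = 0.0380), without the low-complexity libraries (1.33, adjusted p = 0.0436), with no low-count filter (1.96, adjusted p = 0.0226) and by DESeq2 (1.70, adjusted p = 8.36e-05). Under spike-in scaling Igll1, Vpreb1 and Vpreb2 fell, at -5.61, -6.07 and -4.16 (adjusted p = 0.00387, 0.00358 and 0.0182).

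Whether a step differed between genotypes was tested as an interaction over all 40 libraries. This fit, like those of the steps, did not pair the fractions of a mouse. With the mouse as a block, calls over all genes went from 65, 370 and 19 to 0, 1 and 0 in the 3 interactions. In the mutant step from FrC to FrD they went from 332 to 1. In the unpaired interaction fit none of the 6 was called in the 3 steps, where 0.524% (all higher), 2.98% (0.274% higher and 2.71% lower) and 0.153% (0.0565% higher and 0.0968% lower) of all genes were. The nearest was Vpreb3 from FrD to FrE, which differed by 1.24 ± 0.46 on the log2 scale (adjusted p = 0.240). Within a mouse Vpreb3 was lower in FrE than in FrD in 5 of 5 WT mice, by -1.69 to -0.19, and higher in 4 of 5 mutant mice, with a range of -0.38 to 0.87. DESeq2 called this difference (1.21, adjusted p = 0.0419), as did the fit without the low-complexity libraries (1.36, adjusted p = 0.0495). It was not called with the mouse as a block (1.23, adjusted p = 0.699) or under spike-in scaling (0.49). Of the 10 fits that left out 1 mouse, 0 called it (lowest adjusted p = 0.123).

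In FrB the low-complexity libraries stood apart from the others in the ratios within each receptor complex. Cd79a had 1.53 to 1.86 counts per Cd79b count in the 6 other FrB libraries, mutant mouse 5 among them at 1.86, and 0.247 to 1.01 in the 4 low-complexity ones. In FrD of WT mouse 3 the ratio was 0.324 and in FrE of WT mouse 7 it was 0.259, against 0.890 to 1.17 and 0.932 to 1.08 in the other WT libraries of those fractions, while mutant FrD libraries went down to 0.493. The Cd79a ratio did not separate all low-complexity libraries in FrC and FrE. In FrC they ran from 0.324 to 1.93 against 1.37 to 1.92, mutant mouse 9 being the highest of all, and in FrE mutant mouse 9 (0.767) lay within the other mutants (0.736 to 0.927). Vpreb1 had 0.447 to 0.621 counts per Igll1 count in the other FrB libraries and 1.13 to 3.25 in the low-complexity ones. In FrC this ratio was 0.408 to 0.524 against 0.887 to 1.26. In FrD it was 0.359 to 4.75 in the other libraries and 5.3 in the low-complexity one. In FrE it did not separate them, at 0.110 to 2.35 against 0.276 to 1.29. These ratios do not depend on the scaling between libraries.

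Cd79a was below every other library of its fraction in all 4 low-complexity FrB, all 3 FrC and the 1 FrD library, and in 1 of the 2 FrE libraries. The same counts held for Cd79b. Vpreb1 was above every other library in 4 of 4 in FrB and 2 of 3 in FrC. The part of low complexity in these values was not tested beyond the fits without those libraries.

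**Figure D3:**
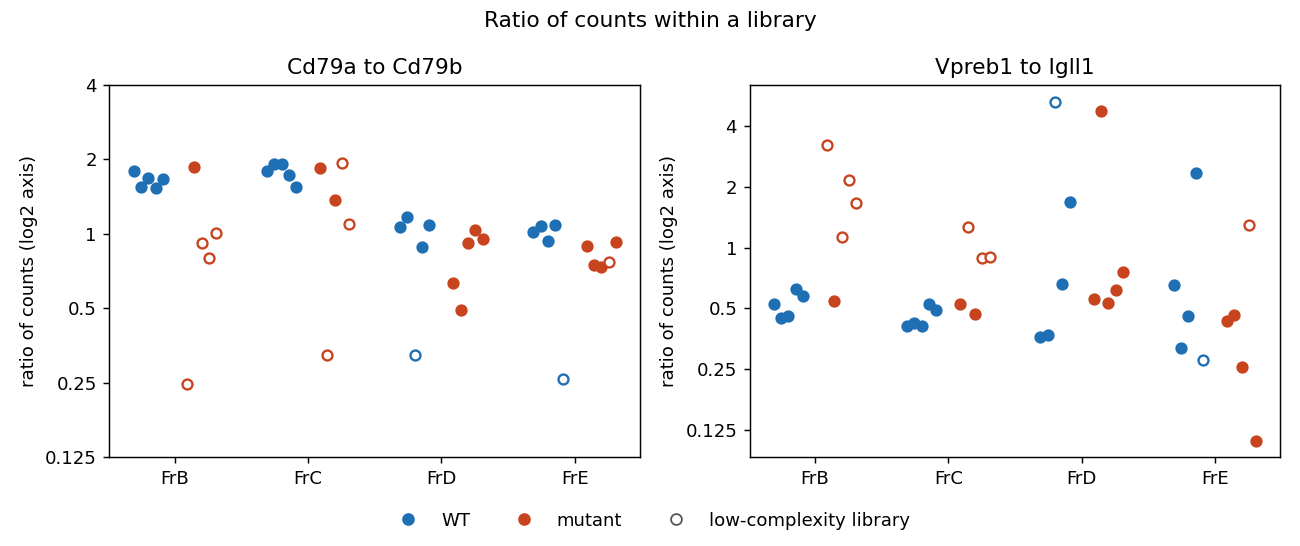
Ratio of Cd79a to Cd79b counts (left) and of Vpreb1 to Igll1 counts (right) within each library, on log2 axes, by fraction and genotype. Each point is 1 library and open points are low-complexity libraries. In FrB all open points lie below the filled ones on the left and above them on the right.

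The central comparison of the study is mutant against WT within a fraction. In FrB, 4 of the 6 genes were called, 2 higher and 2 lower in mutants, where 7.37% of all genes were called (5.64% higher and 1.72% lower). Both CD79 genes fell. Cd79a stood at 243, 2069, 190, 500 and 785 CPM in mutant mice 4, 5, 8, 9 and 10, against 3440 to 4244 CPM in WT, and its fitted change was -2.22 ± 0.43 (adjusted p = 0.00878). Cd79b stood at 986, 1112, 206, 627 and 780 CPM, against 2045 to 2540 CPM, with a change of -1.47 ± 0.28 (adjusted p = 0.00767). For neither gene did the genotypes overlap, which held for 8.27% of all genes with mutants lower.

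Vpreb1 and Vpreb2 rose in mutant FrB. Vpreb1 was 3023, 1578, 1989, 3017 and 3140 CPM in mice 4, 5, 8, 9 and 10, against 1095 to 1776 CPM in WT, so mouse 5 lay within the WT range. Its change was 1.18 ± 0.27 (adjusted p = 0.0173). Vpreb2 was 417, 358, 492, 372 and 354 CPM, against 147 to 226 CPM in WT, with a change of 1.42 ± 0.33 (adjusted p = 0.0181). Its genotypes did not overlap, as for 4.41% of all genes with mutants higher.

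Igll1 did not pass the test in FrB (-0.28 ± 0.27, adjusted p = 0.549). Its mutant values were 929, 2906, 1754, 1391 and 1886 CPM against 2432 to 3079 CPM in WT, and mouse 5 lay among the WT libraries. Vpreb3 (0.20 ± 0.22, adjusted p = 0.609) was 1633, 2264, 1072, 1474 and 1827 CPM against 1322 to 2096 CPM. The fitted value of Igll1 was above 0 under spike-in scaling (0.15) and without the low-complexity libraries (0.05).

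Of the 5 mutant FrB libraries 4 were of low complexity. Without them 1 mutant library (mouse 5) remained against 5 WT libraries, its spread taken from the WT libraries, and only Cd79b was called (-1.15, adjusted p = 0.0360). Cd79a stood at -0.97 (adjusted p = 0.0599), Vpreb2 at 0.82 (adjusted p = 0.207) and Vpreb1 at 0.09 (adjusted p = 0.930). With spike-in scaling none of the 6 was called, at 1.66 for Vpreb1, 1.82 for Vpreb2, -1.48 for Cd79a and -0.72 for Cd79b, while the median of all genes moved from 0.11 to 0.59. Spike-in totals were uneven here too, at 1879 to 15764 counts in mutant FrB and 8303 to 29768 in WT FrB.

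Leaving out WT mouse 1, 2 or 3 also ended the call of Vpreb1 (adjusted p = 0.0521 to 0.0611), and leaving out WT mouse 1, 2, 3 or 7 that of Vpreb2 (0.0503 to 0.0651). The titles end in number strings whose last digits were read here as the second index primer, a reading the labels do not state. Within both sets so defined the genotypes were apart in the same direction for Cd79a, Cd79b and Vpreb2. Cd79a was 500 and 2069 CPM in mutants against 3440 to 4244 in WT in the first set, and 190 to 785 against 3615 and 3880 in the second. Vpreb2 was 358 and 372 CPM against 147 to 226, and 354 to 492 against 203 and 217. Vpreb1 overlapped in the first set, at 1578 and 3017 CPM against 1111 to 1776. In the second it was 1989 to 3140 against 1095 and 1605 CPM.

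Markers of other cells moved with these FrB differences, in a fraction where 5.64% of all genes were called higher and 1.72% lower. Markers of immature and mature B cells (12 of 13 in the table) summed to 905 to 2835 CPM in mutant FrB against 7949 to 12680 CPM in WT, with 6 of 12 called lower and all 12 below 0. Plasma cell markers (8 genes) summed to 952 to 13260 against 18540 to 53750 CPM, with Xbp1 called lower. Granulocyte and monocyte markers (13 genes) summed to 2713 to 60550 CPM against 130 to 12030 CPM, with 3 called higher, and the value of mutant mouse 5 was the lowest of the mutants. Erythroid markers (8 genes) summed to 61.7 to 11840 against 2072 to 22970 CPM, with 1 called lower (Car1) and 8 of 8 below 0. Without the low-complexity libraries, which leaves mutant mouse 5 alone, the median log2 change of the granulocyte and monocyte list went from 3.46 to -0.93. It went from -2.5 to -3.04 for immature and mature B cells, from -2.02 to -1.48 for plasma cells and from -1.47 to -0.12 for erythroid cells. None of these lists had a gene at 0 throughout either group. Their part in the result was not tested.

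**Figure D4:**
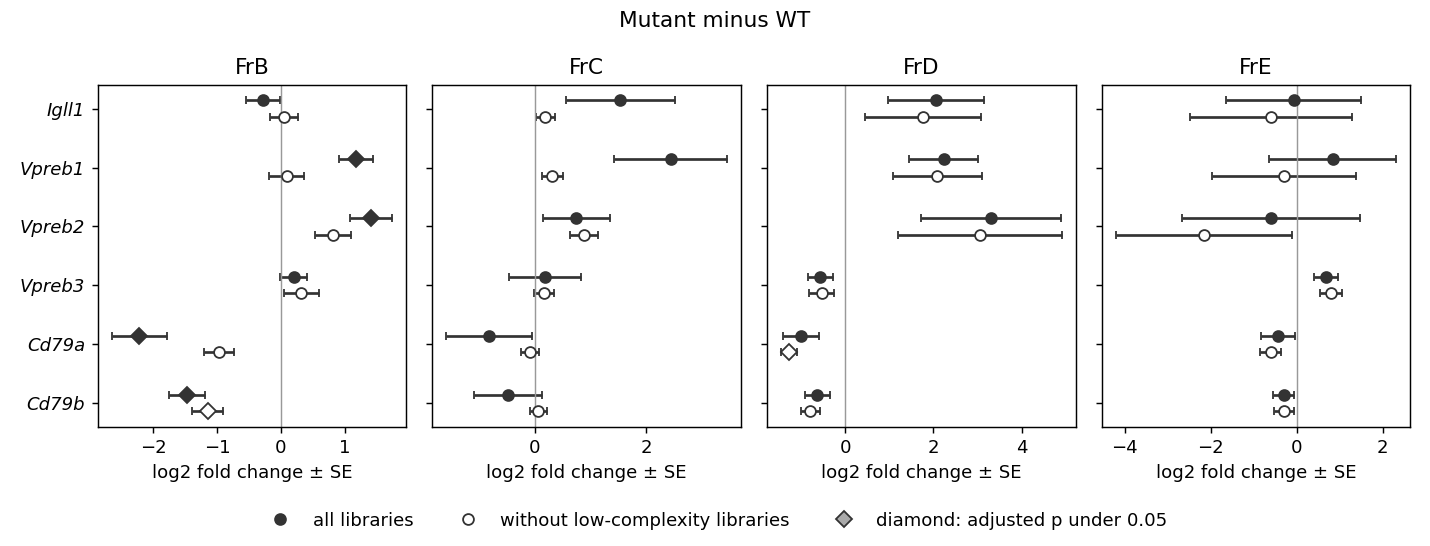
Fitted log2 fold change, mutant minus WT, with its standard error, for each gene and fraction. Filled symbols are fits on all 10 libraries, open symbols fits without the low-complexity libraries, and diamonds have an adjusted p under 0.05. The FrB values of Cd79a and Vpreb1 lie nearer to 0 without those libraries, a fit that holds 1 mutant library in FrB.

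In FrC 0 of the 6 genes was called, as for 0% of all genes by edgeR (1168 genes had an unadjusted p under 0.05, and DESeq2 called 1490). The genotypes overlapped for all 6, and were apart for 0.0388% of all genes with mutants higher and 2.32% with mutants lower. Cd79a was 2909, 139, 2291, 167 and 774 CPM in mutant mice 4, 5, 8, 9 and 10 against 2529 to 3012 CPM in WT, and Cd79b was 1575, 429, 1678, 86.5 and 703.4 against 1427 to 1748 CPM. Mice 4 and 8, which are not of low complexity, lay within the WT range, except for Cd79a of mouse 8 just below it. Vpreb1 was 1390, 1416, 1466, 3130 and 1810 CPM against 951 to 1475 CPM.

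The FrC library of mutant mouse 9 had a TMM factor of 0.177, against 0.835 to 1.36 in the other 9 libraries, and the highest mutant levels of Igll1 and Vpreb1. The part of either in the fitted values was not tested. The fitted change of Vpreb1 was 2.44 ± 1.01 (adjusted p = 0.362), with a range of 0.70 to 2.68 when each mouse was left out. For Igll1 it was 1.54 ± 0.98 (adjusted p = 0.616), with a range of 0.02 to 1.73. Without the low-complexity libraries the 6 changes were 0.19 for Igll1, 0.32 for Vpreb1, 0.89 for Vpreb2, 0.17 for Vpreb3, -0.08 for Cd79a and 0.07 for Cd79b. Igll1 was 2654, 1121, 3137, 3528 and 2014 CPM against 2139 to 3107 CPM in WT, with mutant libraries on both sides of the WT range. Vpreb3 was 1977, 1152, 2396, 233 and 2155 CPM against 1612 to 2331 CPM, likewise on both sides. Vpreb2 was 328, 163, 272, 2.32 and 333.2 CPM against 105 to 213 CPM.

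In FrD 0 of the 6 was called, against 0.00996% of all genes (1 gene), while 530 genes had an unadjusted p under 0.05 and DESeq2 called 286. The genotypes overlapped for all 6, and were apart for 1.72% of all genes with mutants higher and 0.468% with mutants lower. The surrogate light chain genes had higher mean levels in mutants. Igll1 stood at 427, 2.48, 893, 519 and 1452 CPM in mutant mice 4, 5, 8, 9 and 10, Vpreb1 at 239, 11.8, 473, 320 and 1099 CPM, and Vpreb2 at 67.6, 0.069, 67.1, 38.1 and 135 CPM. For all 3 genes, mutant mice 4, 8, 9 and 10 lay above every WT FrD library and mouse 5 lay low. The fitted changes were 2.06 ± 1.09 (adjusted p = 0.931), 2.23 ± 0.78 (adjusted p = 0.838) and 3.31 ± 1.59 (adjusted p = 0.931), and all 3 stayed above 0 when any mouse was left out. On simulated data of this design, the changed genes were picked at random among those with a mean of at least 20 CPM. Of these, 70% of those changed by 3 on the log2 scale and 27% of those changed by 2 were recovered. Each simulated gene had its own spread, and recovery at the spread of these 3 genes was not simulated.

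The CD79 genes and Vpreb3 had lower mean levels in mutant FrD. Cd79a was 3228, 2304, 3317, 2778 and 3364 CPM in mutants against 6903, 6815, 652, 5657 and 7568 CPM in WT, with WT mouse 3 the only WT library below the mutants. Its change was -1.01 ± 0.42 (adjusted p = 0.908), and without WT mouse 3, the 1 low-complexity library of this fraction, Cd79a fell by 1.28 (adjusted p = 0.0116). Cd79b was 5109, 4670, 3622, 2673 and 3542 CPM (-0.64 ± 0.29, adjusted p = 0.922), and below the 4 other WT libraries in all 5 mutants. Vpreb3 was 5215, 5282, 3124, 2208 and 3014 CPM (-0.57 ± 0.29, adjusted p = 0.931). Under spike-in scaling the changes were -0.41 for Cd79a, -0.02 for Cd79b and 0.03 for Vpreb3, and Cd79b had 1910 ± 939 counts per 1000 spike-in counts in WT and 1887 ± 922 in mutants (SD, n = 5 each).

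Markers moved in FrD as well. Granulocyte and monocyte markers summed to 12070 to 23100 CPM in mutant FrD, against 79130 CPM in WT mouse 3 and 47.2 to 8492 CPM in the other WT libraries. In the fit on all libraries 5 of the 12 genes tested were above 0 and 7 below. Late pre-B markers (4 genes) summed to 545 to 666 CPM in mutants, with all 4 genes below 0. In WT they summed to 312 CPM in mouse 3 and 1033 to 1477 CPM in the other libraries. Markers of immature and mature B cells summed to 1710 to 4070 CPM in mutants and 1823 to 13030 CPM in WT. No list had more than 1 gene called in this fraction, and their part in the result was not tested.

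In FrE 0 of the 6 was called, and 0% of all genes by edgeR (512 had an unadjusted p under 0.05, and DESeq2 called 120). The genotypes overlapped for all 6, and were apart for 1.4% of all genes with mutants higher and 0.507% with mutants lower. Vpreb3 was 5438, 4046, 5702, 3301 and 4098 CPM in mutant mice 4, 5, 8, 9 and 10 against 3074, 2045, 3419, 1889 and 1995 CPM in WT mice 1, 2, 3, 6 and 7. Only mutant mouse 9, a low-complexity library of 42111 counts, lay below the highest WT library. The change was 0.68 ± 0.27 (adjusted p = 0.914), with a range of 0.53 to 0.81 when each mouse was left out. Markers of late pre-B cells (4 genes) summed to 570 to 793 CPM in mutant FrE against 218 to 521 CPM in WT, and those of pro-B cells and progenitors (6 genes) to 614 to 924 against 115 to 284 CPM, without overlap. Markers of immature and mature B cells summed to 9629 to 15740 against 12450 to 37710 CPM, with 12 of 12 below 0 and 0 called. Their part in the result was not tested.

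Cd79a in mutant FrE was 6957, 4041, 6293, 4773 and 6976 CPM (-0.44 ± 0.39, adjusted p = 0.999) and Cd79b 7765, 5417, 8548, 6222 and 7526 CPM (-0.30 ± 0.25, adjusted p = 0.999), both within the WT range. For Cd79a that range reaches down through WT mouse 7, a low-complexity library at 1201 CPM, and the other 4 WT libraries (7252 to 11203 CPM) lay above all 5 mutants. Without the low-complexity libraries its change was -0.60 (adjusted p = 0.535). The surrogate light chain genes varied from mouse to mouse by orders of magnitude in both genotypes. Igll1 was 382, 202, 54.8, 404 and 15.3 CPM in mutants (change -0.07 ± 1.57), Vpreb1 166, 93.9, 13.98, 522 and 1.69 CPM (0.84 ± 1.48), and Vpreb2 6.17, 1.18, 0.048, 47.5 and 1.797 CPM (-0.60 ± 2.07). Without WT mouse 2 the changes of Igll1 and Vpreb2 were 2.52 and 4.47, and without the low-complexity libraries that of Vpreb1 was -0.30.

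Of 25 listed genes for the receptor and its proximal signalling, 19 were in the table (the immunoglobulin constant genes are not analysed here). In mutant FrB 2 of the 19 rose, where 5.64% of all genes did: Pik3cd (2.42, a catalytic subunit of phosphoinositide 3-kinase) and Inpp5d (1.46, the phosphatase SHIP1). Cd81, a tetraspanin of the B cell surface, fell by 1.57, where 1.72% of all genes fell. The median of the list was -0.02 against 0.11 for all genes. It was -0.06 without the low-complexity libraries, a fit with 1 mutant FrB library (mouse 5). No gene of the list was called in the later fractions on all libraries, and without the low-complexity ones 1 was called, Blnk in FrD (-1.46).

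From WT FrC to FrD 3 of the 19 rose, where 2.95% of all genes did: Blnk (1.46), the adaptor that links SYK to downstream signalling, Lyn (1.38), a kinase of the CD79 tails, and Dok3 (2.21), an adaptor that dampens signalling. From FrD to FrE the inhibitory co-receptor gene Cd22 (2.56) and Ptpn6 (2.81, the phosphatase SHP-1) rose and Blnk fell by 0.88, where 5.32% of all genes were called. Their directions are those of TMM scaling, under which the median of all genes was near 0.

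Among 21 genes for factors known to bind or control these genes, 4 rose in mutant FrB, where 5.64% of all genes did: Sox4 (3.77), Tcf3 (2.33, which encodes the E2A proteins), Bach2 (1.92) and Ebf1 (1.64). The list median was 0.72 against 0.11 for all genes. Without the low-complexity libraries, which leaves 1 mutant FrB library (mouse 5), the list median was 0.41, with Tcf3 at 1.51 and Bach2 at 1.52. None of the 21 was called in a later fraction on all libraries. Without the low-complexity libraries 1 was called in FrD, Tcf12 (-1.43), and 2 in FrE, Myb (1.47) and Bach2 (2.22). From WT FrC to FrD 5 rose and Myc fell by 6.02, where 5.23% of all genes were called, and Foxo1 (1.88), Tcf12 (1.82) and Spib (1.70) had the next lowest p. From FrD to FrE 3 rose and 6 fell, against 5.32% of all genes called, and the lowest p belonged to Myb, which fell by 2.19, Irf8, which rose by 2.23, Irf4, which fell by 1.52, and Runx1, which fell by 1.81.

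Of 10 genes for the folding and assembly of immunoglobulin in the endoplasmic reticulum, Pdia4, a disulfide isomerase, fell by 2.21 in mutant FrB, where 1.72% of all genes fell. The other 9 were not called (median of the list -0.18 against 0.11 for all genes). None of the 10 was called in a later fraction. From WT FrD to FrE Calr (1.31), Hspa5 (1.21) and Pdia6 (0.98), all chaperones or folding enzymes, rose, as did 2.88% of all genes.

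Across all 40 libraries, which share fractions and mice, the genes fell into groups by Pearson's r of log2(CPM + 1), given as a description. Igll1 and Vpreb1 had r = 0.94, Vpreb1 and Vpreb2 0.87, Igll1 and Vpreb2 0.85, and Cd79a and Cd79b 0.88. Vpreb3 lay nearer to Cd79b (0.82) and Cd79a (0.65) than to the surrogate light chain genes (-0.57 to -0.44). In the 30 libraries that are not of low complexity the r of Igll1 with Cd79b went from -0.59 to -0.79.

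Outside the 6, the genes most like Igll1 among 6942 with a mean of at least 20 CPM were Dnph1 (r = 0.808), Cdk6 (0.796) and Rps27a (0.752). Those most like Vpreb1 were Elovl6 (0.808), Dntt (0.801) and Gfra2 (0.799), and those most like Vpreb2 were Cdk6 (0.864), Dnph1 (0.856) and Dctpp1 (0.827). For Vpreb3 they were Dnajc7 (0.912), Cdkn1b (0.872) and Gabarap (0.870). Cd79a came closest to Pnrc2 (0.935), Gpr18 (0.932) and Ppp1r16b (0.932), and Cd79b to Myl12b (0.948), Cytip (0.940) and Pdcd4 (0.935). In the 30 other libraries Dnph1 ranked first for both Igll1 (0.910) and Vpreb2 (0.927), and was the only one kept among the 3 most alike. For Vpreb1, Vpreb3, Cd79a and Cd79b 0 of the 3 were kept, and Vpreb1's went to ranks 99, 96 and 23.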

How the data were processed

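The deposited table holds raw read counts per gene for 40 libraries. Per the submitters' processing notes the authors used HISAT2 2.1.0, featureCounts 1.4.6 (Subread), DESeq2 and mm10; annotation release, strand setting and multi-mapped reads were not stated. Of 22050 rows, 92 are spike-in RNAs and 21958 genes, of which 2904 had no count and 21728 matched a symbol in GENCODE M21 (GRCm38), which also gave positions and lengths. Fraction, genotype and mouse come from the labels.

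Counts were fitted with edgeR 4.0.16 (R 4.3.3, limma 3.58.1; TMM factors, robust quasi-likelihood test, filterByExpr with a minimum count of 10 and total of 15), with p-values adjusted by Benjamini-Hochberg over all genes tested. Genotypes were compared within each fraction, steps within each genotype, and the difference of steps over all 40 libraries. Alternatives were DESeq2 1.42.0, spike-in scaling, no filter, the second index set (read from the titles) as a covariate, a mouse block for steps, and fits without low-complexity libraries or without each mouse. CPM use the sum of gene counts, and log2 values of CPM have 1 added. No pair of libraries had a correlation above 0.98.

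Fractions of 1 mouse come from the same animal, which pairs them for steps. The deviations of same-mouse libraries had median correlations of -0.02 to 0.09 over 6 steps. Each mouse is 1 replicate. Totals ran from 42111 to 43372070 counts (median 16474388.5), and reads without molecular identifiers are not independent molecules, so the limit for a count of 0 covers counting error only. On simulated counts for the FrB comparison (10256 genes), the changed genes were picked at random among those with a mean of at least 20 CPM. Of these, 10% of those changed by 2 and 52% of those changed by 3 on the log2 scale were recovered.

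The members, marker lists and gene lists were chosen with earlier results of these data known. Named are the 6 genes in every comparison, up to 4 called genes of lowest p per list and comparison, and the 3 genes most like each member.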

Additional observations from a re-analysis of the deposited data

Results flagged for a closer look

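In 8 of 48 groups of 5 libraries, 1 library lay far from the other 4 by Dixon's test on CPM. A rate of about 1 in 20 groups by chance holds only for independent values with a normal spread. Here CPM spanned orders of magnitude within some groups, and the 6 genes share their libraries. The count of 8 therefore cannot be set against that rate. WT FrE of mouse 2 was far above the rest for all 3 surrogate light chain genes, with 809.82 CPM of Igll1 (others 1.12 to 114), 257.46 CPM of Vpreb1 (others 0.730 to 51.9) and 37.82 CPM of Vpreb2 (others 0.0858 to 0.360). WT FrD of mouse 6 was high for Vpreb2, at 23.35 CPM (others 0 to 4.34).

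The other 4 were low-complexity libraries. WT FrD of mouse 3 was low for Cd79a, at 651.58 CPM (others 5657 to 7568), and for Cd79b, at 2014.4 CPM (others 5810 to 6935). Mutant mouse 9 was high for Vpreb1 in FrC, at 3129.6 CPM (others 1390 to 1810), and for Vpreb2 in FrE, at 47.494 CPM (others 0.0484 to 6.17).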

How the results depend on the processing

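Values are log2 changes, with the value of the reported fit in brackets; the cause of each move was not tested. Spike-in scaling turned Igll1 in FrB to 0.15 (-0.28) and Vpreb3 in FrD to 0.03 (-0.57). In WT FrB to FrC it gave 0.63 for Igll1, 0.41 for Vpreb1, 0.46 for Vpreb2, 0.20 for Cd79a and 0.05 for Cd79b, all below 0 before. From WT FrC to FrD it gave -0.92 for Vpreb3, -1.49 for Cd79a and -0.54 for Cd79b, and from FrD to FrE 0.41 for Vpreb1. In mutant FrC to FrD it gave -1.04 for Vpreb3, -0.87 for Cd79a and -0.02 for Cd79b, and from FrD to FrE -0.19 for Vpreb3. Genotype differences of steps became 0.10 for Vpreb1, 0.62 for Cd79a and 0.52 for Cd79b (FrC to FrD), and -0.25 for Cd79a and -0.46 for Cd79b (FrD to FrE). Of the 6 genes it called 0 in FrB (4), 0 in WT FrD to FrE (1) and 3 in mutant FrC to FrD (0).

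Without low-complexity libraries Igll1 was 0.05 in FrB, Cd79b 0.07 in FrC (-0.47) and Vpreb1 -0.30 in FrE (0.84). Mutant FrB to FrC became -0.03 for Igll1, -0.17 for Vpreb1 and -0.07 for Vpreb3, and genotype differences of steps 0.03 for Vpreb2 (FrB to FrC) and 1.76 for Vpreb1 (FrC to FrD). Of the 6 genes 1 was called in FrB (4), and 1 (0) in FrD, WT FrB to FrC, mutant FrC to FrD, mutant FrD to FrE and the genotype difference from FrD to FrE. DESeq2 gave genotype differences of 0.09 for Vpreb3 (FrB to FrC; 0.03 with no filter) and -0.32 for Igll1 (FrC to FrD), and called 1 gene (0) in mutant FrC to FrD, as did no filter, and 1 (0) in the genotype difference from FrD to FrE. With the index set as covariate Igll1 was 0.47 and Vpreb2 0.80 in FrE.

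With the mouse as a replicate block, Igll1 was -0.60 (0.44) and Vpreb2 -1.14 (0.52) in WT FrD to FrE, and Vpreb1 0.47 (-0.45) in the genotype difference from FrC to FrD; the block changed no call of the 6 genes. No paired analysis was possible because the genotypes were different mice, for comparisons within a fraction.

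Levels with TMM factors were 7412 CPM for Igll1 and 6287 for Vpreb1 in mutant FrC, 475.9 for Vpreb2 in mutant FrB, 3518 and 2358 for Cd79a and 2147 and 1329 for Cd79b in WT FrB and FrC.

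Leaving out each mouse in turn, genes that changed sign ranged as follows. In mutant minus WT, Vpreb3 in FrC ran from -0.03 to 0.24, and in FrE Igll1 from -0.69 to 2.52 and Vpreb2 from -1.86 to 4.47. In WT steps, Vpreb3 from FrB to FrC ran from -0.03 to 0.16, and from FrD to FrE Igll1 from -2.19 to 1.11, Vpreb1 from -2.44 to 0.43 and Vpreb2 from -4.98 to 2.89. In mutant FrB to FrC, Vpreb1 ran from -0.79 to 1.38, Vpreb3 from -0.13 to 0.20 and Cd79b from -0.17 to 0.57. In genotype differences of steps, Vpreb1 ran from -0.41 to 1.78 and Vpreb3 from -0.16 to 0.14 (FrB to FrC); Igll1 from -0.38 to 2.14, Vpreb1 from -1.32 to 1.65 and Cd79b from -0.43 to 0.05 (FrC to FrD); and Igll1 from -2.83 to 0.48, Vpreb1 from -2.31 to 0.74 and Vpreb2 from -7.21 to 0.63 (FrD to FrE). Of the 6 genes 2 to 4 were called in FrB, 0 to 1 in FrD, 0 to 2 in WT FrD to FrE, 0 to 1 in mutant FrC to FrD and 0 to 1 in the genotype difference from FrB to FrC.

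The lowest total was that of mutant FrE of mouse 9, and the effect of depth was not tested. Counts of called genes over all alternatives ran from 148 to 2169 in FrB (778), 0 to 1490 in FrC (0), 0 to 286 in FrD (1), 0 to 120 in FrE (0), and in WT steps from 0 to 200 (19), 188 to 6636 (598) and 239 to 1641 (608). In mutant steps they ran from 0 to 371 (0), 0 to 3221 (332) and 0 to 107 (0), and in genotype differences from 0 to 381 (65) and 0 to 606 (370), and from FrD to FrE from 0 to 140 higher (7) and 0 to 362 lower (12).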
